A study of Rattus norvegicus with 12 samples.

Results

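The comparison set the level of each gene after 12 h of angiotensin II (Ang II) against the average of its levels after 6 h and 24 h, in cultured aortic smooth muscle of the Sprague-Dawley rat, which the labels call differentiated vascular smooth muscle cells. It asks which genes stood highest or lowest in the middle of the series. All 14506 genes with a single symbol and a measured probe set entered it, out of 14506 in the series, each through its brightest probe set, and 9 of the 12 arrays supply the values. The difference is the 12 h mean minus the average of the 6 h and 24 h means on the log2 scale, where a difference of 1 is 2-fold. Because 6, 12 and 24 h are evenly spaced on a log2 time axis, a gene that moves along a straight line on that axis has a difference of 0.

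Ang II is the effector peptide of the renin-angiotensin system, which contracts vessels and drives growth of vascular smooth muscle. Its type 1 receptor couples to Gq and calcium and activates the MAP kinases, which switch on immediate-early transcription factors such as EGR1 and the NR4A receptors within minutes. These factors and their feedback inhibitors, the dual-specificity phosphatases and Sprouty proteins, are known for short pulses of expression, whereas lipid synthesis, DNA replication and the circadian clock follow on a scale of hours.

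The cells had been grown in medium with 10% fetal bovine serum, all groups were then kept without serum for 48 h, and their RNA was read on Affymetrix arrays of the Rat Gene 1.0 ST design. There are 4 groups of 3 arrays: untreated cells, and cells given 100 nM Ang II for 6 h, 12 h or 24 h. The labels name no genotype or age, and their treatment protocol gives 1, 3 or 24 h, while the sample titles and the design text give 6, 12 and 24 h, which are used here. The arrays are called biological replicates without a word on the animals or cultures behind them. The p-values therefore cover only how much these arrays vary, which may be technical. The titles place the untreated arrays at 0 h, and none of the 12 arrays is an untreated control of a later time. Time in culture and Ang II therefore cannot be told apart.

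The array medians lay between 7.22 and 7.32 on the log2 scale, and of 66 pairs of arrays 0 had identical values. Interquartile ranges were 3.22 to 3.31 for the 24 h arrays, 3.31 to 3.44 at 12 h and 3.31 to 3.42 at 6 h, so the 24 h arrays were the narrowest. With 3 arrays a group the median standard error of the difference was 0.0578. Smooth muscle markers fitted the label: the mean of the 8 markers lay between 12.2 and 12.6 on all arrays, with the actin gene Acta2 between 14.3 and 14.5 and the transgelin gene Tagln between 13.9 and 14.2. All levels are of a whole culture, in which fewer cells of a kind and less RNA per cell cannot be told apart.

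By limma's moderated test with Benjamini-Hochberg adjustment over all genes, 3119 genes (21.5%) differed between 12 h and the mean of its neighbours at an adjusted p under 0.05. Of these, 1578 (10.9%) were higher at 12 h and 1541 (10.6%) were lower. Not all of them had an extreme at 12 h. A peak was called where 12 h was also above 6 h and above 24 h in both pairwise tests, which held for 484 genes (3.34%), and the mirror image, a dip, held for 384 genes (2.65%). With each array centred on its median, 1464 genes were higher and 2023 lower, with 470 peaks and 569 dips, so which direction is the more frequent depends on the scaling. In another 328 genes that were higher and 349 that were lower, the 12 h mean lay between the 6 h and 24 h means, so these are bends in a rising or falling course. The remaining 766 higher and 808 lower genes had their 12 h mean outside both neighbours without passing both pairwise tests.

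The pairwise tests alone called 13.1% of genes higher and 13.9% lower at 12 h than at 6 h, and 13.5% higher and 14% lower than at 24 h. Against untreated cells 13.3% were higher and 13.3% lower at 12 h, 18.6% and 17.2% at 6 h, and 15.3% and 14.7% at 24 h.

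Most of the differences between 12 h and its neighbours were small. Only 59 higher and 48 lower genes differed by at least 1.5-fold, among them 39 peaks and 25 dips, and 1 peak and 4 dips reached 2-fold. The 3 arrays at 12 h lay above all 6 arrays of the other times in 863 genes (5.95%) and below all 6 in 762 genes (5.25%), including 476 of the 484 peaks and 371 of the 384 dips. The median difference over all genes was -0.02, and 43.6% of genes were on the positive side of 0.

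**Figure D1:**
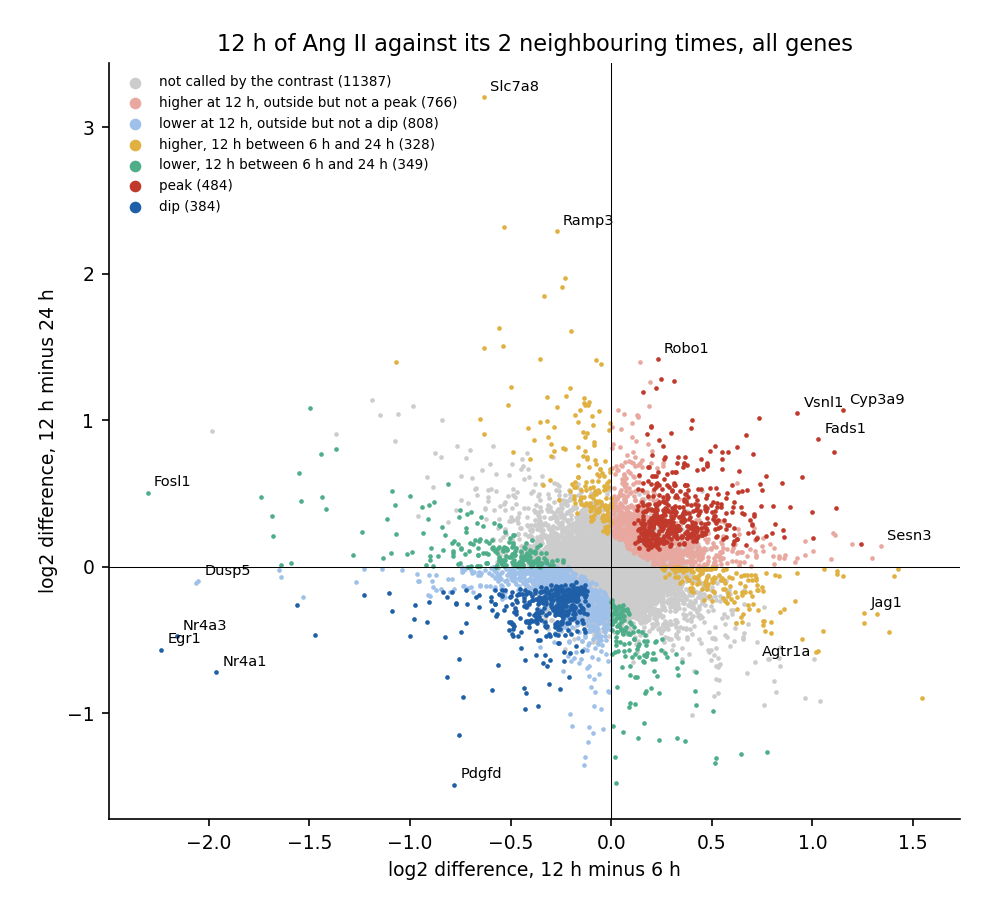
Each point is 1 of 14506 genes, with its log2 difference of 12 h minus 6 h on the x axis and of 12 h minus 24 h on the y axis, coloured by class. Peaks (484, red) fill the upper right and dips (384, dark blue) the lower left, Cyp3a9 and Egr1 lie at their far ends, and the bends (328 orange, 349 green) lie in the other quadrants.

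The highest peak belonged to Cyp3a9, a cytochrome P450 of the steroid-metabolising 3A family. Its log2 level read 7.26, 7.25 and 7.33 in untreated cells, 7.98, 8.12 and 8.09 at 6 h, 9.31, 9.11 and 9.21 at 12 h and 8.06, 8.11 and 8.25 at 24 h. The 12 h arrays stood above all 9 others, the untreated ones lowest. The difference was 1.11 ± 0.06 (standard error, 3 arrays a group), or 2.16-fold, with an adjusted p of 6.45e-07 from limma. Other Cyp3a genes are close in sequence, and whether the probes also take up their RNA was not tested.

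Vsnl1, which encodes the neuronal calcium sensor visinin-like 1, was likewise lowest in untreated cells and highest at 12 h. It read 8.70, 8.58 and 8.71 in untreated cells, 9.47, 9.61 and 9.54 at 6 h, 10.42, 10.48 and 10.49 at 12 h and 9.37, 9.39 and 9.49 at 24 h. The difference was 0.99 ± 0.05, and the 6 h and 24 h arrays overlapped with each other but not with 12 h. All 3 times lay above the untreated arrays.

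Fads1, the delta-5 fatty acid desaturase that makes arachidonic acid, was highest at 12 h by a wide margin. Its levels were 11.31, 11.30 and 11.34 in untreated cells, 11.03, 11.16 and 11.12 at 6 h, 12.15, 12.12 and 12.12 at 12 h and 11.21, 11.28 and 11.29 at 24 h. The 9 arrays of the other 3 groups lay between 11.03 and 11.34, and the difference was 0.95 ± 0.04 (1.93-fold, adjusted p 1.37e-07, limma).

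Robo1, a receptor for SLIT guidance proteins, had another form. It read 9.14, 9.11 and 9.11 in untreated cells, 10.07, 10.21 and 10.19 at 6 h, 10.36, 10.43 and 10.38 at 12 h and 8.89, 9.02 and 9.01 at 24 h. It was already high at 6 h, and 12 h exceeded 6 h by 0.23 ± 0.05 and 24 h by 1.42 ± 0.05, while the 24 h arrays all lay below the untreated ones. Tes, which encodes the focal adhesion protein testin, had a like course. Its means were 9.57 in untreated cells, 10.41 at 6 h, 10.65 at 12 h and 9.37 at 24 h. Jade1, a subunit of a histone acetyltransferase complex, was also high at 6 h and 12 h but at the untreated level at 24 h. Its means were 8.96 in untreated cells, 9.95 at 6 h, 10.17 at 12 h and 8.95 at 24 h. Ppp1r14c, an inhibitor of protein phosphatase 1 related to the smooth muscle inhibitor CPI-17, read 7.70 at 6 h, 8.02 at 12 h and 6.75 at 24 h.

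Among the rest of the 15 largest peaks, Calcrl, the receptor for adrenomedullin and CGRP, differed by 0.88 ± 0.10 and read 6.27, 5.99 and 6.26 at 6 h, 6.90, 6.74 and 7.10 at 12 h and 5.98, 5.80 and 5.91 at 24 h. Akap5, an anchor of protein kinase A, differed by 0.78 ± 0.06, and Rapgef4, the cyclic AMP sensor EPAC2, by 0.72 ± 0.07. Cd28, known as a costimulatory receptor of T cells, differed by 0.95 ± 0.10 with 12 h arrays at 7.29, 7.54 and 7.43. Its 6 h arrays read 6.42, 6.49 and 6.03, in the range of the untreated ones at 6.32, 6.02 and 6.35 or just above. The leukocyte marker Ptprc lay between 5.20 and 5.65 on all 12 arrays, and the part of leukocytes in the Cd28 signal was not tested.

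Klhl31, a kelch-like gene of striated muscle, differed by 0.76 ± 0.08. Pcyt1b, an enzyme of phosphatidylcholine synthesis, differed by 0.79 ± 0.06, Veph1 by 0.74 ± 0.06 and Ms4a14 by 0.71 ± 0.13. Set against untreated cells, which shares the 12 h arrays with the comparison above, these 15 genes had 12 h differences from 0.02 in Veph1 to 1.93 in Cyp3a9. Veph1 had means of 6.83 in untreated cells, 6.14 at 6 h, 6.84 at 12 h and 6.08 at 24 h, so 12 h was at the untreated level and both neighbours below it. Pcyt1b (0.31 ± 0.07 against untreated) and Akap5 (0.44 ± 0.07) had means below untreated cells at 6 h and 24 h and above them at 12 h.

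**Figure D2:**
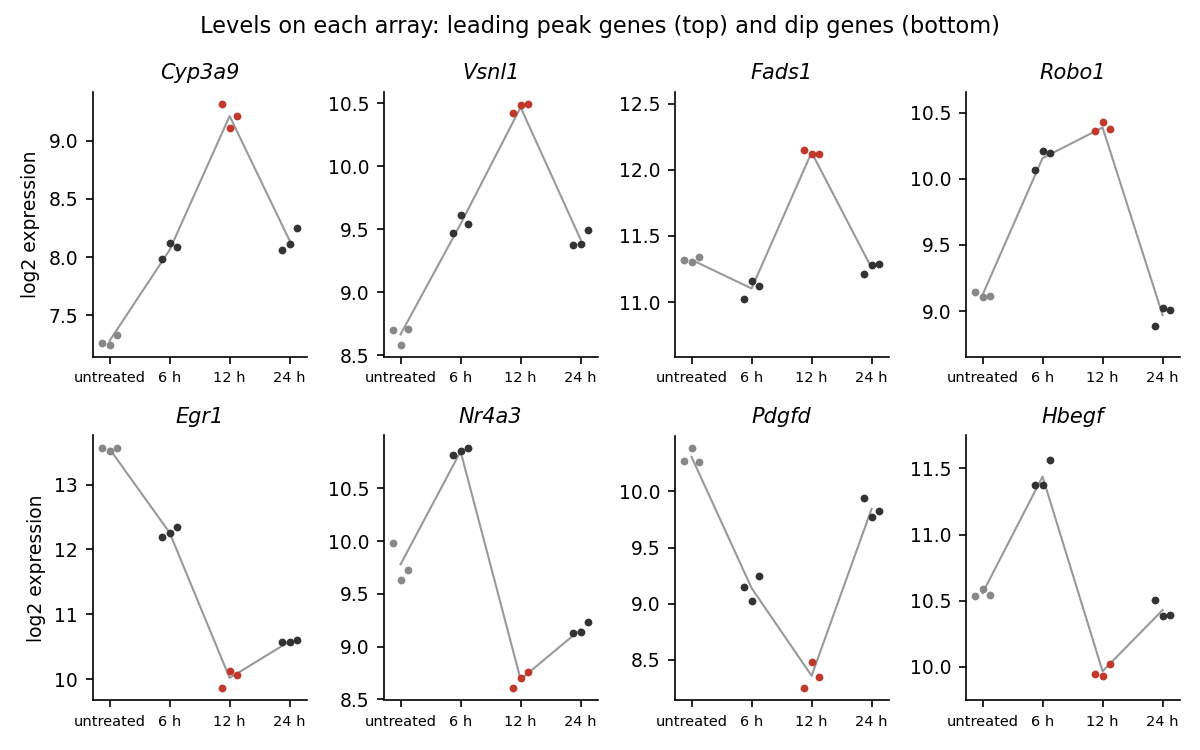
The log2 level on each of the 12 arrays (dots; 12 h in red, untreated in grey) and the group means (line) are shown for 4 leading peaks, Cyp3a9, Vsnl1, Fads1 and Robo1, and 4 leading dips, Egr1, Nr4a3, Pdgfd and Hbegf; each panel has its own y axis. In all 8 panels the 3 arrays at 12 h lie beyond the 6 arrays of 6 h and 24 h, which was a condition for picking these genes.

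The deepest dips were early transcription factors. Egr1, the zinc finger factor at the head of the growth response, read 13.57, 13.51 and 13.56 in untreated cells, 12.19, 12.25 and 12.34 at 6 h, 9.87, 10.14 and 10.06 at 12 h and 10.57, 10.58 and 10.60 at 24 h. Its untreated arrays were the brightest, and from the 12 h low it was 0.56 higher again at 24 h. The difference was -1.40 ± 0.06, or 2.64-fold (adjusted p 1.37e-07, limma).

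Nr4a1, an orphan nuclear receptor of the same early wave, took the same course, with levels of 12.05, 11.73 and 12.02 in untreated cells, 10.70, 10.40 and 10.62 at 6 h, 8.46, 8.58 and 8.79 at 12 h and 9.38, 9.29 and 9.32 at 24 h and a difference of -1.34 ± 0.09. Its relative Nr4a3 differed by -1.32 ± 0.07 but started otherwise, with 9.98, 9.63 and 9.73 in untreated cells, 10.81, 10.85 and 10.89 at 6 h, 8.61, 8.70 and 8.76 at 12 h and 9.13, 9.14 and 9.23 at 24 h. Its 6 h arrays were above the untreated ones, and 12 h was below both. Nr4a2, the remaining member of the family, was also a dip, at -0.50 ± 0.05.

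Growth factor genes came next. Pdgfd, a ligand of the PDGF beta receptor, read 10.27, 10.39 and 10.26 in untreated cells, 9.15, 9.02 and 9.25 at 6 h, 8.25, 8.48 and 8.35 at 12 h and 9.94, 9.77 and 9.82 at 24 h. It was below untreated cells at all times, lowest at 12 h, and 1.49 higher at 24 h than at 12 h on the log2 scale. The difference was -1.13 ± 0.07. Hbegf, the heparin-binding ligand of the EGF receptor, read 10.54, 10.59 and 10.55 in untreated cells, 11.37, 11.38 and 11.57 at 6 h, 9.95, 9.93 and 10.02 at 12 h and 10.51, 10.39 and 10.39 at 24 h, with the 6 h arrays highest and a difference of -0.97 ± 0.05. Its 24 h arrays were within 0.20 of the untreated mean of 10.56.

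The other dips include regulators of RNA and receptor signalling. Noct, a gene known for its daily rhythm, read 10.00, 9.88 and 9.96 at 6 h, 8.31, 8.38 and 8.46 at 12 h and 8.63, 8.57 and 8.74 at 24 h, a difference of -0.91 ± 0.05. Map2, which encodes a microtubule-associated protein, differed by -0.95 ± 0.07, Prag1, a pseudokinase, by -0.81 ± 0.07, and Fgf13 by -0.72 ± 0.06. S1pr1, the receptor of sphingosine 1-phosphate, read 9.44, 9.40 and 9.38 in untreated cells, 10.52, 10.53 and 10.63 at 6 h, 9.71, 9.75 and 9.77 at 12 h and 10.59, 10.43 and 10.46 at 24 h. Its 12 h arrays all lay above the untreated arrays, and it passed the test against them (0.33 ± 0.05), so its dip lay between 2 higher levels and above the starting one.

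Ptgs2, the inducible cyclooxygenase COX-2, read 11.86, 11.65 and 11.93 in untreated cells, 11.55, 11.59 and 11.73 at 6 h, 10.60, 10.61 and 10.66 at 12 h and 11.10, 11.08 and 11.10 at 24 h, a difference of -0.73 ± 0.06. Plaur, the urokinase receptor, differed by -0.71 ± 0.04, with 6 h arrays at 11.90, 11.85 and 11.97 and 12 h arrays at 10.66, 10.67 and 10.69, next to untreated arrays at 10.63, 10.55 and 10.66. The clock gene Per2 (-0.70 ± 0.05), the EGF receptor inhibitor Errfi1 (-0.70 ± 0.05) and Zfp36, whose protein tristetraprolin destabilises AU-rich mRNAs (-0.69 ± 0.07), complete the 15. Against untreated cells, with the same 12 h arrays, the 12 h differences of these 15 genes ran from -3.53 in Egr1 to 0.33 in S1pr1.

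Among the bends, the steepest was Slc7a8, which encodes the amino acid transporter LAT2. Its levels were 7.90, 7.96 and 8.01 in untreated cells, 11.36, 11.42 and 11.44 at 6 h, 10.82, 10.71 and 10.78 at 12 h and 7.64, 7.53 and 7.53 at 24 h. It was highest at 6 h, still 2.81 above untreated cells at 12 h, and below them at 24 h, so the difference of 1.28 ± 0.04 marks a late fall and no peak. Ramp3, the partner protein of Calcrl in the adrenomedullin receptor, was a bend of 1.01 ± 0.10, with means of 7.44 in untreated cells, 10.16 at 6 h, 9.89 at 12 h and 7.59 at 24 h. Olr1, the receptor for oxidised lipoprotein (0.89 ± 0.11), and Esm1, which encodes endocan (0.83 ± 0.06), fell late too. Serpinb2, a plasminogen activator inhibitor, differed by 0.87 ± 0.17 with an adjusted p of 0.00318 in limma. Against a line straight in hours, which weights 6 h by 2/3, it came to 0.50 with an adjusted p of 0.0537, and the other alternatives had an adjusted p of up to 0.0368.

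Of the 5 leading bends on the lower side, 4 were brightest at 6 h. Fosl1, the AP-1 subunit FRA-1, read 8.61, 8.56 and 8.56 in untreated cells, 10.81, 10.94 and 11.02 at 6 h, 8.58, 8.57 and 8.71 at 12 h and 8.09, 8.05 and 8.20 at 24 h, so it was near the untreated level at 12 h and below it at 24 h. Its difference was -0.90 ± 0.05. Sema7a, a membrane semaphorin, read 11.39, 11.38 and 11.47 at 6 h, 9.73, 9.73 and 9.75 at 12 h and 9.52, 9.50 and 9.54 at 24 h, a difference of -0.73 ± 0.04. Arc (-0.81 ± 0.10) and the ERK phosphatase Dusp6 (-0.78 ± 0.06) were also bright at 6 h and dim at both later times. Cdo1, cysteine dioxygenase, was low at 6 h and 12 h and higher at 24 h, with means of 12.21 in untreated cells, 10.40 at 6 h, 10.42 at 12 h and 11.90 at 24 h and a difference of -0.72 ± 0.09.

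Promoter sequence was searched for 6 short motifs in the 250 bases before the start of each gene, on both strands, in RefSeq promoters of the rat assembly GRCr8. Of 14506 genes, 11952 had a promoter in that table, among them 413 peaks and 327 dips. The motifs were the CArG box bound by serum response factor, the cyclic AMP element TGACGTCA, the E-box CACGTG of clock and MYC-type factors, the AP-1 site TGANTCA, the sterol element TCACNCCAC and the D-box TTANGTAA. Overlaps between motifs were not resolved. The promoters below were picked from leading dips, leading peaks and clock genes that hold at least 1 of these motifs. Egr1, with 2 CArG boxes, and Plaur, Fgf13 and Cd28 also qualified and are not shown. Motifs are in capitals. Each sequence runs 5′ to 3′ on the strand of its gene and ends at the base before the start.
Zfp36: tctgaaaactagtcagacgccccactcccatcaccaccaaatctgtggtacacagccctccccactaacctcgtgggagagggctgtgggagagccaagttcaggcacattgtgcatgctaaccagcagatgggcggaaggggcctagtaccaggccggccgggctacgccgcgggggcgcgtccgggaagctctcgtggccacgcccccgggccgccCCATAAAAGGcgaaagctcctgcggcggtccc
Per2: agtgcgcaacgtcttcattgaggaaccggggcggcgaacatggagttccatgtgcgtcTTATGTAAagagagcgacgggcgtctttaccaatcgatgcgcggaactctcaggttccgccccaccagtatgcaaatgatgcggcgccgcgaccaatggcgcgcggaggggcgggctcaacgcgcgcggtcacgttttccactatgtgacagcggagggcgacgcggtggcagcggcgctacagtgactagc
Ptgs2: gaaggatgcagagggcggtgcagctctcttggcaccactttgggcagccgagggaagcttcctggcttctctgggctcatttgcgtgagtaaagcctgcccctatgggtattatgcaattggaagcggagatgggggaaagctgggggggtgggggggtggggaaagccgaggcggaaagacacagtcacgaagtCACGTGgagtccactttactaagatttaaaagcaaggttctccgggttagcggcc
Cyp3a9: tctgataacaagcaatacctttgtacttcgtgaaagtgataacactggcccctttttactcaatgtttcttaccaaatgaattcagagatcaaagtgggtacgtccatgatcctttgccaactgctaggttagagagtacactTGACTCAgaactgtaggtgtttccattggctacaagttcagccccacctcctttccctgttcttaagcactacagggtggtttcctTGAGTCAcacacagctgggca

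The Zfp36 sequence lies at chr1:92799109-92799358 on the minus strand, and its capitals are a CArG box from -32 to -23. Per2 is at chr9:99496994-99497243, minus strand, with a D-box from -192 to -185. Ptgs2 is at chr13:64713813-64714062, plus strand, with an E-box from -55 to -50. Cyp3a9 is at chr12:21960161-21960410, minus strand, with AP-1 sites from -107 to -101 and from -21 to -15. These are matches of letters and not measured binding sites.

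A CArG box was found in 9 of 327 dip promoters (2.75%), in 2 of 413 peak promoters (0.484%) and in 1.18% of all promoters. The 9 dips with one are Egr1, Zfp36, Brf1, Irf3, Kansl2, Or2q1, Ppif, Shmt1 and Vamp1. For the other motifs the shares in dips, peaks and all promoters were 2.45%, 2.18% and 2.28% for the cyclic AMP element, 6.42%, 5.33% and 6.93% for the E-box, and 4.59%, 5.81% and 5.48% for the AP-1 site. They were 0.612%, 1.21% and 0.945% for the sterol element and 1.83%, 0.969% and 1.66% for the D-box. These shares are descriptions without a test.

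The 42 gene lists that follow are read by counts of members higher or lower at 12 h, beside 10.9% higher, 10.6% lower and a median of -0.02 over all genes. A range in parentheses is the lowest and highest count over 22 other settings of the fit, which include leaving out each array in turn. The 22 settings do not include the filter on dim genes, the fit of all probe sets or the minimum of 1.5-fold. That minimum would empty or shrink most lists, since only 59 higher and 48 lower genes of all 14506 reached it.

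The Ang II receptor genes did not pass the test at 12 h. Agtr1a, the main type 1 receptor gene, read 11.75, 11.80 and 11.80 in untreated cells, 9.29, 9.10 and 9.27 at 6 h, 9.91, 9.91 and 9.97 at 12 h and 10.60, 10.51 and 10.65 at 24 h. It was highest in untreated cells, lowest at 6 h and then higher at each later time, with 12 h 0.72 ± 0.06 above 6 h, and the difference was 0.03 ± 0.05 with an adjusted p of 0.702. Against the line straight in hours it came to 0.26 with an adjusted p of 0.00297, while the other alternatives gave -0.01 to 0.05 with an adjusted p of 0.498 to 0.983. Agtr1b (0.14 ± 0.07, adjusted p 0.183) and the type 2 receptor gene Agtr2 (0.07 ± 0.11, adjusted p 0.707) did not pass. Of 15 measured genes of the renin-angiotensin system, 2 were higher (1 to 3) and 1 lower (0 to 2). The largest difference was that of Prcp, a peptidase that cleaves Ang II, at 0.28 ± 0.04, with 24 h the lowest group.

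Among 24 immediate-early and AP-1 factors, 10 were lower at 12 h (10 to 13) and 4 were higher (1 to 4, and 2 without 12 h replicate 3), and the median was -0.19. Besides Egr1, the NR4A genes and Fosl1, the lower ones were Fos (-0.52 ± 0.09), Egr3 (-0.51 ± 0.07), Junb (-0.49 ± 0.06), Egr2 (-0.36 ± 0.07) and Ier3 (-0.33 ± 0.04). Junb read 10.25, 10.20 and 10.37 at 6 h, 9.52, 9.43 and 9.46 at 12 h and 9.68, 9.62 and 9.62 at 24 h, with 12 h the lowest mean. The higher ones were all bends: the quiescence-associated factors Klf2 (0.31 ± 0.07) and Klf4 (0.32 ± 0.06), Ier5 and Srf. Myc, at -0.03 ± 0.05, did not pass. The mean of the list was 10.1 in untreated cells, 9.58 at 6 h, 8.95 at 12 h and 8.96 at 24 h.

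MAP kinase feedback regulators were lower in 12 of 17 (10 to 13) and higher in 1 (0 to 2), with a median of -0.29. Dusp5, a nuclear ERK phosphatase, differed by -1.07 ± 0.06 and read 9.85, 9.78 and 9.88 in untreated cells, 10.36, 10.42 and 10.56 at 6 h, 8.51, 8.27 and 8.40 at 12 h and 8.49, 8.58 and 8.41 at 24 h; it did not differ between 12 h and 24 h beyond the arrays (adjusted p 0.336). Spry4 read 10.21, 10.06 and 10.33 at 6 h, 9.32, 9.29 and 9.27 at 12 h and 9.61, 9.49 and 9.51 at 24 h, a dip of -0.57 ± 0.06, and Spry2 was a bend of -0.50 ± 0.06. Dusp1, a phosphatase of several MAP kinases, differed by -0.21 ± 0.05. The mean of the 17 genes was 9.77 in untreated cells, 10.1 at 6 h, 9.46 at 12 h and 9.49 at 24 h, so the list passed from above to below the untreated level between 6 h and 12 h.

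Of 19 regulators of G protein signalling 3 were higher (2 to 5) and 3 lower (2 to 5). These shares of 15.8% each way are not far from the 10.9% and 10.6% over all genes. Rgs16 read 9.61, 9.57 and 9.68 at 6 h, 8.07, 8.09 and 8.10 at 12 h and 8.28, 8.11 and 8.48 at 24 h, a difference of -0.87 ± 0.07, and Rgs2, which limits Gq signalling of the Ang II receptor, differed by -0.42 ± 0.06. Rgs17 was higher by 0.43 ± 0.04 and the receptor kinase Grk5 by 0.34 ± 0.05. Of 13 calcineurin and NFAT genes 2 were higher (0 to 3) and 2 lower (1 to 3), with Rcan1, the calcineurin inhibitor, a dip of -0.26 ± 0.04.

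Of 35 growth factor and ligand genes, 7 were higher (4 to 9) and 9 lower (6 to 10). Without 12 h replicate 2 the higher ones numbered 4. Hgf, hepatocyte growth factor, was a peak of 0.65 ± 0.06 and read 7.21, 7.22 and 7.34 in untreated cells, 7.46, 7.24 and 7.30 at 6 h, 8.14, 8.22 and 8.29 at 12 h and 7.92, 7.73 and 7.78 at 24 h. Vegfc was a peak of 0.33 ± 0.05 and Gdf6 of 0.28 ± 0.07. Fgf16 was a bend of 0.67 ± 0.08, with untreated arrays at 11.63, 11.80 and 11.66, 6 h arrays at 9.14, 8.79 and 8.91 and both later times in between. On the lower side stood Pdgfb (-0.53 ± 0.06) and Fgf2 (-0.45 ± 0.05) beside Pdgfd and Hbegf.

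In TGF-beta and BMP signalling 6 of 25 genes were lower (5 to 8), 5 of them dips, and 4 were higher, which became 2 without 6 h replicate 2, 12 h replicate 2, 12 h replicate 3 or 24 h replicate 2. The dips were the ligand gene Bmp6 (-0.48 ± 0.06), the receptors Tgfbr1 (-0.44 ± 0.05) and Acvrl1 (-0.31 ± 0.04), the BMP target Id1 (-0.37 ± 0.07) and the inhibitor Smad7 (-0.32 ± 0.04). Tgfbr1 read 9.93, 9.96 and 9.97 in untreated cells, 10.35, 10.46 and 10.43 at 6 h, 9.95, 9.97 and 9.87 at 12 h and 10.45, 10.27 and 10.28 at 24 h, so its 12 h arrays were at the untreated level between 2 higher times. Bmp6 was below untreated cells throughout, with means of 9.74 in untreated cells, 8.24 at 6 h, 7.75 at 12 h and 8.22 at 24 h.

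In the Wnt and Notch pathways, 5 of 23 (4 to 8) and 2 of 17 (2 in all settings) genes were higher and 4 (2 to 5) and 2 (1 to 3) lower. Fzd4, a Wnt receptor, was a peak of 0.46 ± 0.04 and the Notch target Hey2 one of 0.41 ± 0.03. The Notch ligand Jag1, with means of 13.09 in untreated cells, 11.58 at 6 h, 12.84 at 12 h and 13.15 at 24 h, was a bend of 0.47 ± 0.04.

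In the core clock, feedback genes were lower at 12 h, and genes of the activators were higher or did not pass. BMAL1 and NPAS2 or CLOCK drive transcription of the Period, Cryptochrome and REV-ERB genes, whose products feed back on them. Of 13 core clock genes 7 were lower at 12 h (6 to 7) and 3 higher (3 in all 22 settings), with a median of -0.37. Per2 read 9.26, 9.19 and 9.26 in untreated cells, 9.03, 8.91 and 8.97 at 6 h, 8.54, 8.46 and 8.63 at 12 h and 9.54, 9.51 and 9.48 at 24 h, so that 12 h was the lowest group and 24 h the highest. Nr1d1, which encodes the repressor REV-ERB alpha, read 9.85, 9.89 and 9.91 in untreated cells, 10.02, 9.98 and 10.08 at 6 h, 9.62, 9.69 and 9.75 at 12 h and 10.41, 10.28 and 10.35 at 24 h, a dip of -0.50 ± 0.04 with the same order of 12 h and 24 h.

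Per1 was a dip as well (-0.44 ± 0.05), with means of 9.03 at 6 h, 8.53 at 12 h and 8.91 at 24 h. Per3 (-0.45 ± 0.05) and Nr1d2 (-0.43 ± 0.06) were bends, and Cry1 (-0.37 ± 0.10) and Cry2 (-0.43 ± 0.06) had their lowest mean at 12 h without passing both pairwise tests. In the activator arm, Npas2 read 8.49, 8.51 and 8.53 in untreated cells, 8.52, 8.52 and 8.44 at 6 h, 8.95, 8.81 and 8.84 at 12 h and 8.06, 8.25 and 8.21 at 24 h, a peak of 0.53 ± 0.05, and Bmal2 was a peak of 0.35 ± 0.07. Bmal1 read 8.41, 8.40 and 8.42 in untreated cells, 9.13, 9.19 and 9.33 at 6 h, 9.13, 9.12 and 9.18 at 12 h and 7.89, 7.59 and 7.70 at 24 h, high at 6 h and 12 h and lowest at 24 h, a bend of 0.67 ± 0.06. Clock, at 0.03 ± 0.04, and the kinases Csnk1d and Csnk1e did not pass.

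Of 10 clock output genes 4 were lower (3 to 4) and 1 higher (0 to 2). Tef (-0.41 ± 0.08) and Bhlhe41 (-0.33 ± 0.06) were lower at 12 h. Dbp, a well known output of the loop, had means of 8.73 at 6 h, 9.25 at 12 h and 10.59 at 24 h, a bend of -0.41 ± 0.05. Against the line in hours its difference was -0.10 with an adjusted p of 0.177, and in the other alternatives the adjusted p was at most 0.00257.

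**Figure D3:**
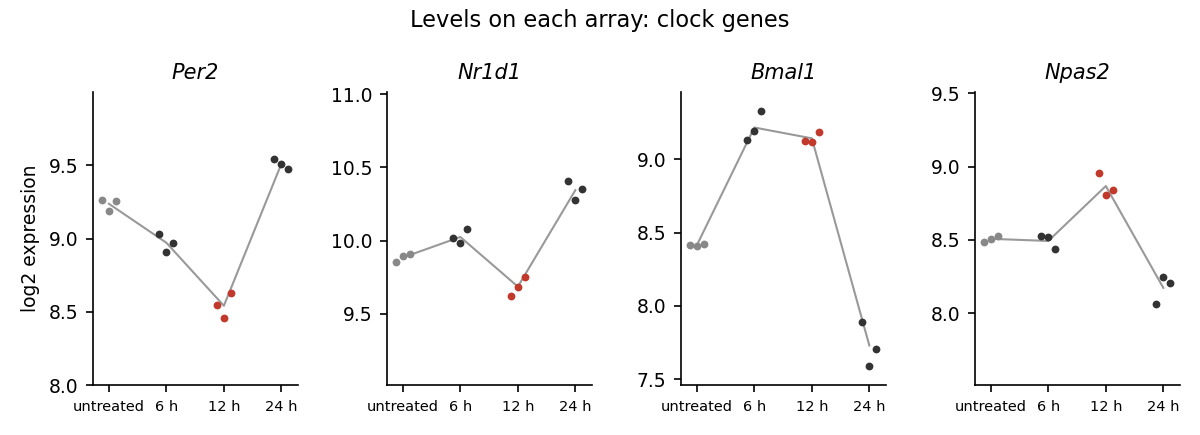
The log2 level on each of the 12 arrays (dots; 12 h in red, untreated in grey) and the group means (line) are shown for 4 clock genes, each on its own y axis. Per2 and Nr1d1 are lowest at 12 h and highest at 24 h, while Npas2 is highest at 12 h and both Npas2 and Bmal1 are lowest at 24 h.

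Lipid synthesis stood higher at 12 h. Of 20 measured cholesterol synthesis genes 19 were higher (17 to 19) and 0 lower by limma, also at an unadjusted p under 0.05 and in all 22 settings, and the median was 0.39. The exception was Fdps, at 0.06 ± 0.05. In all 8 were peaks, among them Lss, lanosterol synthase, which read 10.91, 10.94 and 11.00 in untreated cells, 11.19, 11.27 and 11.32 at 6 h, 11.67, 11.61 and 11.60 at 12 h and 10.81, 10.92 and 10.89 at 24 h, a difference of 0.56 ± 0.04. Acat2 differed by 0.58 ± 0.04, Ebp by 0.50 ± 0.05, Nsdhl by 0.43 ± 0.04 and the mevalonate kinase gene Mvk by 0.40 ± 0.04.

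In Sqle, squalene epoxidase, and Dhcr7, the last enzyme of the pathway, 12 h did not pass against 6 h. Sqle read 11.64, 11.71 and 11.76 at 6 h, 11.79, 11.74 and 11.69 at 12 h and 10.75, 10.65 and 10.60 at 24 h, a difference of 0.55 ± 0.04, so it is high at both early times and low at 24 h. The mean over the 20 genes was 10.8 in untreated cells, 11.2 at 6 h, 11.3 at 12 h and 10.7 at 24 h, with a standard deviation of at most 0.03 over 3 arrays. Srebf2, the transcription factor of the pathway, was a peak of 0.20 ± 0.03.

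Fatty acid synthesis and desaturation genes had many peaks. Of 18 measured genes 11 were higher and 3 lower, in all 22 settings, and 9 were peaks, with a median of 0.37. Beside Fads1, Fads2 read 11.69, 11.67 and 11.70 in untreated cells, 11.77, 11.81 and 11.78 at 6 h, 12.31, 12.25 and 12.27 at 12 h and 11.72, 11.76 and 11.74 at 24 h, a difference of 0.51 ± 0.03. Acly, which makes cytosolic acetyl-CoA, differed by 0.54 ± 0.04, Acaca, acetyl-CoA carboxylase, by 0.42 ± 0.04, and Fasn, fatty acid synthase, by 0.35 ± 0.04. The desaturase genes Scd (0.41 ± 0.05) and Scd2 (0.40 ± 0.04) are close relatives whose probes may share RNA.

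Lpin1, whose product makes diacylglycerol, was a peak of 0.64 ± 0.05. The 3 lower genes were Dgat2 (-0.44 ± 0.05) and Dgat1 (-0.24 ± 0.04), whose products make triglyceride from diacylglycerol, and Agpat2 (-0.33 ± 0.03), whose product makes phosphatidic acid. The sterol element searched above was in 0 of 16 matched promoters of the cholesterol list.

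**Figure D4:**
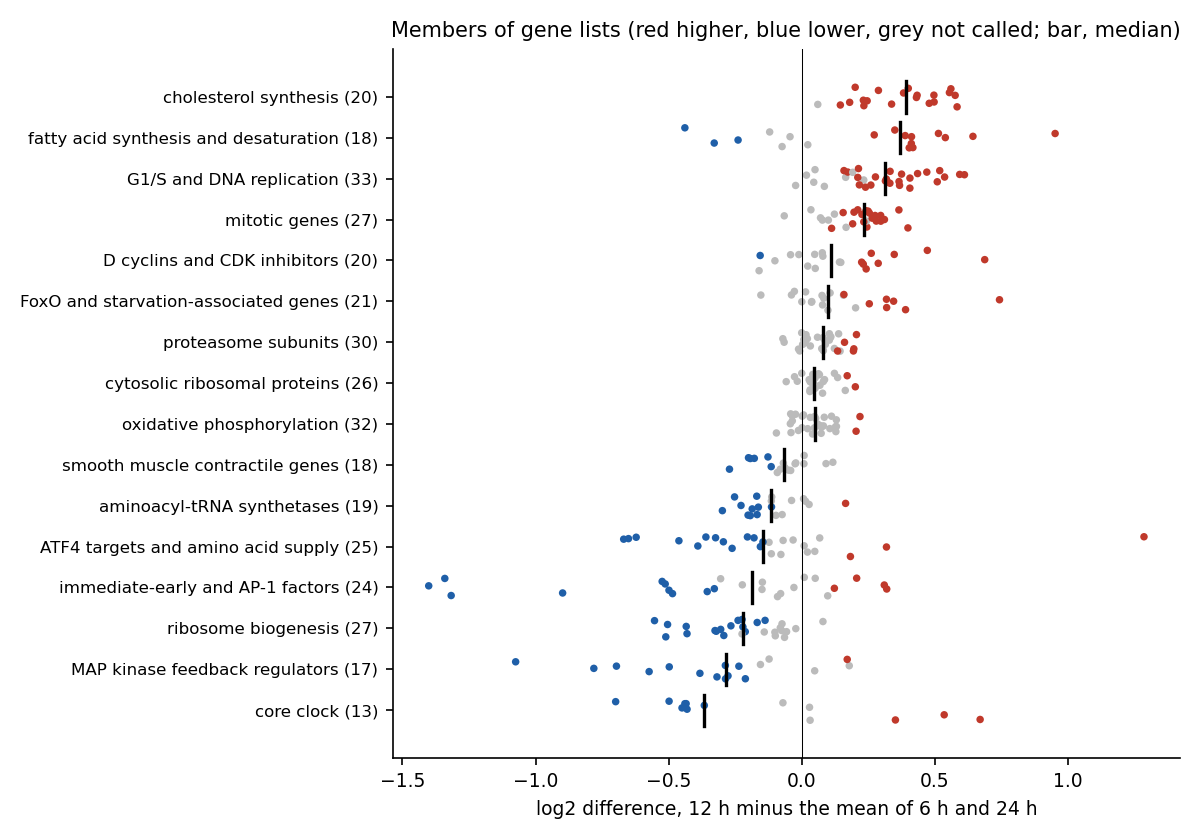
Each dot is a measured member of 1 of 16 gene lists (number of members in brackets), placed by its log2 difference of 12 h minus the mean of 6 h and 24 h; red dots were higher and blue dots lower at an adjusted p under 0.05, grey dots did not pass, and the black bar is the list's median. Cholesterol synthesis (median 0.39) has 19 of 20 members in red, and the core clock (median -0.37) has members on both sides.

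Genes of the cell cycle were also higher at 12 h than at its neighbours, with list means at or below those of untreated cells. Of 33 measured G1/S and DNA replication genes 25 were higher (19 to 27, lowest without 12 h replicate 2) and 0 lower by limma, also at an unadjusted p under 0.05 and in all 22 settings. Of the 25, 19 were peaks, and the median of the list was 0.31. Tyms, thymidylate synthase, read 10.30, 10.26 and 10.24 in untreated cells, 9.83, 9.74 and 9.87 at 6 h, 10.29, 10.39 and 10.42 at 12 h and 9.73, 9.63 and 9.73 at 24 h, a difference of 0.61 ± 0.05. Its 12 h arrays were at the level of untreated cells, and 6 h and 24 h were below it.

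The helicase genes Mcm10 (0.59 ± 0.06), Mcm6 (0.54 ± 0.05), Mcm5 (0.52 ± 0.06) and Mcm2 (0.47 ± 0.04) and the factor E2f1 (0.37 ± 0.04) were peaks too. Mcm6 read 8.96, 8.77 and 8.91 at 6 h, 9.20, 9.28 and 9.24 at 12 h and 8.44, 8.54 and 8.61 at 24 h, with untreated arrays at 9.14, 9.24 and 9.07. Averaged over the list the 12 h arrays were at 8.97 (SD 0.03, n = 3) and the untreated ones at 8.98 (SD 0.03, n = 3). The 6 h and 24 h arrays were at 8.79 (SD 0.05, n = 3) and 8.56 (SD 0.04, n = 3).

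Mitotic genes were higher in 19 of 27 (15 to 21) and lower in 0 by limma, also at an unadjusted p under 0.05, with 11 peaks and a median of 0.23. Nusap1, a spindle protein gene, read 9.99, 9.95 and 9.99 in untreated cells, 9.38, 9.13 and 9.23 at 6 h, 9.77, 9.79 and 9.78 at 12 h and 9.55, 9.48 and 9.51 at 24 h, a difference of 0.40 ± 0.05. Bub1, the checkpoint kinase, differed by 0.36 ± 0.07, Nuf2 by 0.30 ± 0.04 and the cyclin gene Ccnb1 by 0.24 ± 0.05. Here 12 h was below untreated cells, with a list mean of 9.45 against 9.82, and 9.30 and 9.19 at 6 h and 24 h.

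Of 20 D cyclins and CDK inhibitors 8 were higher (7 to 10) and 1 lower (0 to 3). Ccng2, a cyclin of arrested cells, was a peak of 0.69 ± 0.06, and the inhibitors Cdkn2c (0.35 ± 0.05) and Cdkn1a (0.24 ± 0.04) were peaks as well. Ccnd1, cyclin D1, read 12.05, 12.08 and 12.08 in untreated cells, 11.97, 12.06 and 12.10 at 6 h, 11.77, 11.90 and 11.78 at 12 h and 10.72, 10.59 and 10.63 at 24 h, a bend of 0.47 ± 0.05 with 24 h far below the other times. Of 21 FoxO and starvation-associated genes 7 were higher (6 to 9) and 0 lower (0 to 1) by limma, with 1 lower at an unadjusted p under 0.05. Sesn3, a sestrin, read 8.46, 8.36 and 8.60 at 6 h, 9.82, 9.80 and 9.83 at 12 h and 9.75, 9.60 and 9.66 at 24 h, with untreated arrays at 10.60, 10.55 and 10.55 and a difference of 0.74 ± 0.05. Foxo3 (0.34 ± 0.05) and Sesn1 (0.39 ± 0.06) were peaks.

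**Figure D5:**
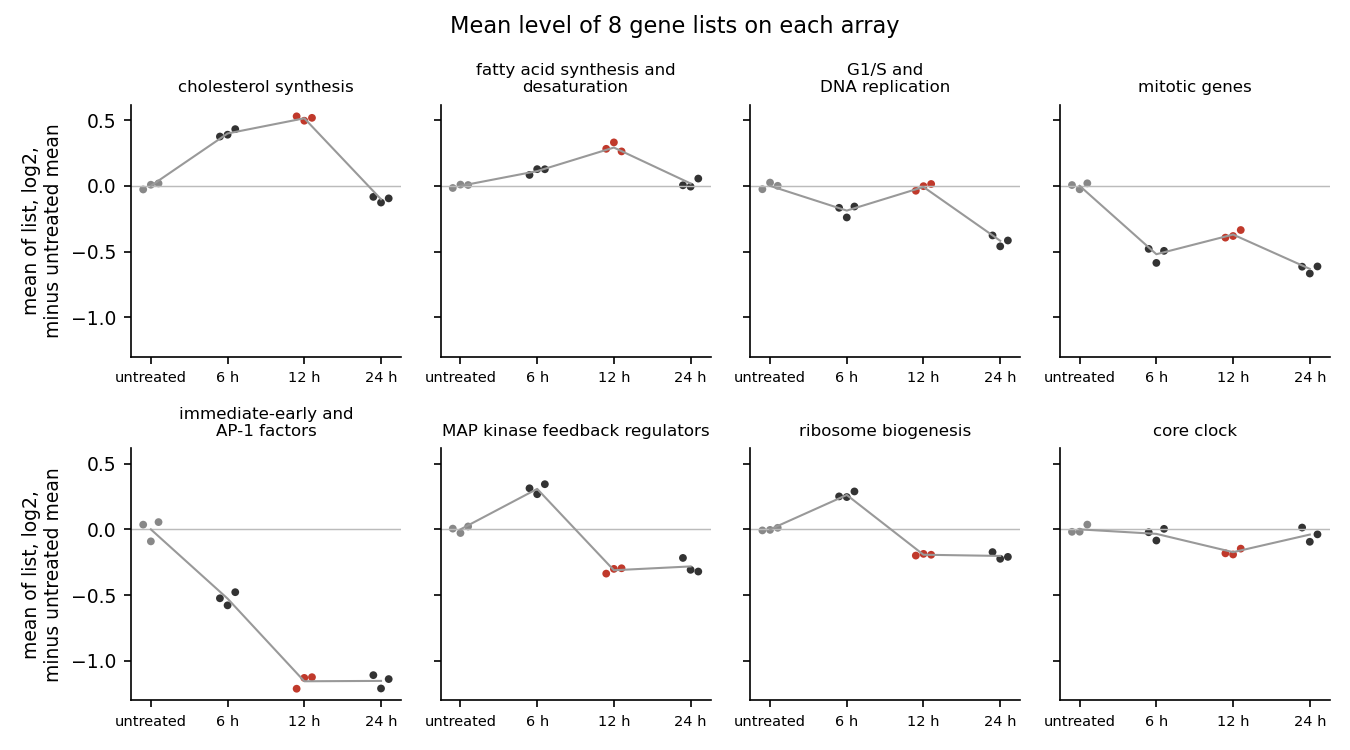
For 8 gene lists each dot is the mean log2 level of the members on 1 array, minus the mean of the untreated arrays (12 h in red, untreated in grey), and the line joins group means. Cholesterol synthesis is highest at 6 h and 12 h, the DNA replication genes return to the untreated level at 12 h alone, and ribosome biogenesis and MAP kinase feedback pass from above to below it between 6 h and 12 h.

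Genes for amino acid supply and for making ribosomes were often lower at 12 h. Of 25 ATF4 targets and amino acid supply genes 13 were lower (12 to 15) and 3 higher (2 to 3), with a median of -0.15 and 6 dips. Slc7a5, the transporter LAT1, read 12.04, 12.02 and 12.02 in untreated cells, 12.46, 12.52 and 12.54 at 6 h, 11.53, 11.53 and 11.52 at 12 h and 11.94, 11.87 and 11.85 at 24 h, a dip of -0.67 ± 0.03, whereas its relative Slc7a8 was the leading bend on the other side. Slc1a5, a glutamine carrier, differed by -0.65 ± 0.04 and Slc7a11, the cystine carrier, by -0.62 ± 0.06. Asns (-0.29 ± 0.04) and Phgdh (-0.32 ± 0.04), enzymes of asparagine and serine synthesis, were dips.

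Aminoacyl-tRNA synthetase genes were lower in 10 of 19 (7 to 13) and higher in 1, with a median of -0.11 and 4 dips. Yars1 (-0.30 ± 0.05), Cars1 (-0.25 ± 0.04) and Lars1 (-0.23 ± 0.04) led them. Of 23 translation initiation factors 7 were lower (5 to 8) and 1 higher (0 to 1), the lowest being Eif2b1 at -0.32 ± 0.03, with arrays of 10.85, 10.84 and 10.82 at 6 h, 10.48, 10.50 and 10.49 at 12 h and 10.85, 10.73 and 10.81 at 24 h.

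Ribosome biogenesis genes were lower in 16 of 27 (14 to 21) and higher in 0 by limma, also at an unadjusted p under 0.05 and in all 22 settings, with a median of -0.22. Nop56, a core protein of small nucleolar RNA complexes, read 10.93, 10.96 and 10.91 in untreated cells, 11.29, 11.36 and 11.34 at 6 h, 10.56, 10.48 and 10.43 at 12 h and 10.70, 10.65 and 10.63 at 24 h, a dip of -0.50 ± 0.04. Polr1e (-0.55 ± 0.07) and Polr1b (-0.43 ± 0.06), subunits of RNA polymerase I, and Utp15 (-0.51 ± 0.05) had their lowest mean at 12 h. They did not pass against 24 h, and the list means of 9.22 at 12 h and 9.21 at 24 h stood against 9.67 at 6 h. Of the 16, 2 were dips.

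Of 26 cytosolic ribosomal protein genes 2 were higher (1 to 6) and 0 lower by limma, against 6 and 0 at an unadjusted p under 0.05, with a median of 0.05. Of 30 proteasome subunits 5 were higher (3 to 11, and 3 without 12 h replicate 2) and 0 lower by limma, against 12 and 0 at an unadjusted p under 0.05. Of 32 oxidative phosphorylation genes 2 were higher (0 to 5), and of 23 lysosome and autophagy genes 3 were higher (1 to 3) and 1 lower (0 to 4). Heat shock chaperones were lower in 7 of 20 (3 to 9, and 4 without 12 h replicate 2) and higher in 3 (1 to 3), with Hspb8 a peak of 0.39 ± 0.05. Of 18 chaperones and unfolded protein response genes of the endoplasmic reticulum 6 were higher (3 to 8, lowest against the line in hours) and 1 lower (1 to 2). Atf6, a sensor of that response, differed by 0.35 ± 0.04.

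Contractile genes of smooth muscle were lower in 6 of 18 (3 to 11, lowest against the line in hours) and higher in 0 (0 to 1) by limma, against 8 and 2 at an unadjusted p under 0.05. Of the 6, 5 were bends and none a dip. Myh11, the smooth muscle myosin heavy chain, read 12.69, 12.70 and 12.72 at 6 h, 12.72, 12.79 and 12.81 at 12 h and 13.40, 13.40 and 13.34 at 24 h, a difference of -0.27 ± 0.03, and Smtn, smoothelin, differed by -0.19 ± 0.04. The list mean was 12.2 in untreated cells, 12.3 at 6 h, 12.4 at 12 h and 12.6 at 24 h. Acta2 (-0.05 ± 0.03) did not pass. Of 18 YAP and SRF cytoskeletal targets 5 were lower (4 to 6) and 3 higher, which became 1 without 12 h replicate 2. Among the higher ones was Ankrd1 at 0.68 ± 0.06, which had its low at 6 h (8.81, 8.61 and 8.62).

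In calcium handling 7 of 26 genes were lower (4 to 8, and 4 without 12 h replicate 2), and 3 higher (2 to 5). Cacna1c, the pore of the L-type calcium channel, read 10.12, 10.07 and 10.05 in untreated cells, 9.38, 9.36 and 9.37 at 6 h, 9.11, 9.32 and 9.28 at 12 h and 10.62, 10.51 and 10.48 at 24 h, a difference of -0.72 ± 0.05, with 12 h close to 6 h and 24 h above untreated cells. Kcnma1, a calcium-activated potassium channel, differed by -0.52 ± 0.09. Itpr2, an inositol trisphosphate receptor, was a peak of 0.57 ± 0.03, with arrays of 8.06, 8.07 and 8.08 in untreated cells, 7.74, 7.68 and 7.75 at 6 h, 8.33, 8.37 and 8.36 at 12 h and 7.86, 7.87 and 7.80 at 24 h.

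The inflammatory and matrix lists stand beside shares of 10.9% higher and 10.6% lower over all genes. Prostanoid genes (11.8% each way) and collagens and other matrix genes (12.5% higher, 8.33% lower) were near these shares. Of 28 cytokine, chemokine and adhesion genes 6 were lower (4 to 8) and 3 higher (1 to 4, and 1 without 12 h replicate 2), the largest beside Ptgs2 being Cxcl16, a bend of 0.71 ± 0.04. Of 17 prostanoid genes 2 were higher, 1 without 12 h replicate 2, and 2 lower, 4 without it, where Pla2g4a, the phospholipase that frees arachidonic acid, stood opposite to Ptgs2 at 0.50 ± 0.05. Among 18 mRNA decay factors 5 were higher (1 to 7, and 2 without 12 h replicate 2 or 3) and 5 lower (5 to 6), the lower ones led by Zfp36 and including its relatives Zfp36l1 (-0.33 ± 0.03) and Zfp36l2 (-0.42 ± 0.05).

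Of 24 matrix proteases and inhibitors 4 were higher (3 to 5) and 4 lower (3 to 5), with Timp3, a tissue inhibitor of metalloproteinases, a dip of -0.38 ± 0.03. Of 24 collagens and other matrix genes 3 were higher (2 to 3) and 2 lower (1 to 5). Of 19 osteochondrogenic genes 3 were higher (2 to 4) and 4 lower (1 to 4), and Mgp, the matrix Gla protein that inhibits calcification, was a peak of 0.52 ± 0.06. It read 9.38, 9.55 and 9.28 in untreated cells, 10.30, 10.33 and 10.30 at 6 h, 10.60, 10.73 and 10.67 at 12 h and 9.97, 9.89 and 10.10 at 24 h, with 12 h the brightest group.

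In metabolism and redox, 6 of 31 glycolysis and hypoxia-responsive genes were higher (5 to 11, and 11 without 24 h replicate 1) and 7 lower (4 to 7). Hk2, a hexokinase, was a bend of -0.67 ± 0.06 after a 6 h high of 9.88, 9.85 and 10.07. Slc16a3, a lactate carrier, was a peak of 0.39 ± 0.04. Of 26 NADPH oxidase and redox genes 6 were higher (4 to 7) and 2 lower (2 to 4). Nox1, the oxidase subunit induced in smooth muscle by Ang II, read 5.62, 5.63 and 5.70 in untreated cells, 7.23, 6.95 and 7.02 at 6 h, 7.28, 7.21 and 7.29 at 12 h and 6.12, 5.93 and 5.93 at 24 h, a difference of 0.73 ± 0.06, and Nqo1 was a bend of 0.51 ± 0.04. Of 23 interferon-responsive genes 2 were higher (1 to 4) and 0 lower (0 to 1) by limma, against 5 and 2 at an unadjusted p under 0.05.

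Markers of other cells were few among the calls. Of 12 measured endothelial markers 0 were higher by limma (0 to 3, and 2 at an unadjusted p under 0.05) and 1 lower (1 to 2), Erg at -0.42 ± 0.06. Without 6 h replicate 2 or 6 h replicate 3 there was 1 higher, and without control replicate 1, control replicate 2 or 6 h replicate 3 there were 2 lower. The list mean was 6.63 to 6.64 in untreated cells and 6.53 to 6.73 over all Ang II arrays. Pecam1 lay between 5.95 and 6.41 and Cdh5 between 6.21 and 6.65 on the 12 arrays. Other members were brighter, with Erg between 7.92 and 9.12, Esam between 7.59 and 8.17 and Egfl7 between 7.67 and 8.06. Of 14 leukocyte markers 1 was higher, Cd14 at 0.47 ± 0.07, and 0 lower by limma (0 to 1, and 1 at an unadjusted p under 0.05). The list mean was 5.94 to 6.11 over all arrays, with Ptprc between 5.20 and 5.65 and the brightest member, Cd14, between 7.13 and 8.43.

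Of 14 fibroblast markers 2 were higher (1 to 2), S100a4 at 0.22 ± 0.04 and Dcn at 0.18 ± 0.06, the latter with an adjusted p of 0.0461. Their list mean was 9.99 to 10.01 in untreated cells, 9.71 to 9.77 at 6 h, 9.70 to 9.75 at 12 h and 9.65 to 9.69 at 24 h. The untreated arrays thus lay above all Ang II arrays, which touches the comparisons with untreated cells. Single members ranged widely, from Fap (5.54 to 6.24 on the 12 arrays) to Thy1 (12.84 to 13.05) and Col1a1 (13.04 to 13.35). No marker can be at 0 on this scale. The part of these markers in the other results was not tested.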

How the data were processed

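RNA of 12 samples was measured on Affymetrix Rat Gene 1.0 ST arrays. The values are log2 intensities that the authors deposited for 29214 probe sets, and the submitters' processing notes name RMA and Partek for them. Their versions, settings and filters are not given in these sources. RMA sets all arrays to a like distribution, so a shift shared by most genes would not show. No detection calls came with the values, so the background level of a probe is not known here.

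Of 29214 probe sets, 15310 had 1 gene symbol in GEO's platform annotation, 323 had several and 13581 were unnamed. Symbols were checked against RefSeq by gene identifier, which changed 0 of them, and the probe set with the highest mean was kept for each of 14506 genes (527 had several). Among all probe sets, 319 held the same values as another one, which touches 24 genes, none of them named.

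Differences were fitted with limma 3.58.1 in R 4.3.3 (lmFit, contrasts.fit, eBayes; 8 residual degrees of freedom) on all 12 arrays in 4 groups taken from the sample titles, with Benjamini-Hochberg adjustment over 14506 genes at 0.05. Tables and plots used Python 3.11.15, pandas 2.3.3 and matplotlib 3.10.9. On simulated data with 50 genes changed at each size, 82% were recovered at 1.25-fold, 98% at 1.5-fold and 100% at 2-fold and 4-fold, and 9 unchanged genes of 14506 were called. Precision is limited by having 3 arrays a group.

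The genes and lists were chosen with earlier results of these data known. Named by rule were the 15 largest peaks and 15 largest dips whose 12 h arrays lay beyond all 6 of the other times, the 5 largest bends each way, up to 4 called members of each list by size, and the 3 Ang II receptor genes. All other names were picked after their values were seen. Of 1001 list entries, 905 were measured. Alternatives covered normalization, probe set choice, a filter on dim genes, variance models, array weights, a minimum fold, the time scale, the replicate number as a block and leaving out each array.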

Additional observations from a re-analysis of the deposited data

How the results depend on the processing

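Asking for at least 1.5-fold left 59 genes higher and 48 lower at 12 h, with 39 peaks and 25 dips, since few differences are that large. Leaving out 1 array at a time gave 1079 to 1729 higher genes, 1131 to 1522 lower genes, 361 to 558 peaks and 290 to 357 dips. The lowest counts of higher genes, lower genes and peaks came without 12 h replicate 2, and that of dips without 24 h replicate 3. With the replicate number as a block the counts were 1488, 1487, 458 and 353. Deviations of same-numbered Ang II arrays correlated at -0.10 to 0.30, over 0.1 in 3 of 9 pairs. Those of differently numbered arrays correlated at -0.28 to 0.26, over 0.1 in 4 of 18 pairs. Whether same-numbered samples share a culture or batch was not tested, and so few correlations cannot decide it. A line straight in hours gave 1610 higher genes, 1301 of them shared with the main setting, and 1598 lower genes, 1277 shared. Median centring moved the median difference from -0.02 to -0.04 and gave 1464 higher genes, 2023 lower genes, 470 peaks and 569 dips. Dropping the narrowest-spread array from each time, an alternative chosen after seeing the data, gave 1069 higher and 1079 lower genes, 331 peaks and 264 dips. All other alternatives kept these 4 counts within 1.5 times. Of 176 named genes that passed, 149 lost the call in none of the 23 alternatives run for single genes, as far as they were measured there. The filter on dim genes kept only 154 of the 179 named genes, so the others were not tested in that alternative. Of the named genes, 0 changed sign while called. Dim genes were measured with no known background, which limits their fold changes.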
